A study of Mus musculus with 8 samples.

Results

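The genes described here are 10 genes of bone morphogenetic protein (BMP) signalling: the ligands Bmp2, Bmp4, Bmp6 and Bmp7, the antagonists Nog, Grem1 and Bambi, and the targets Id1, Id2 and Id3. They were chosen by name among 34790 gene names on the array, without use of their measured values, and all 10 were found. RNA came from the adipose fraction of dorsal skin of female C57BL/6 mice, an inbred laboratory strain whose back hair follicles were at rest. There were 8 samples, 1 per group: skin that was only shaved, the control, taken right after shaving at 10 weeks of age, and skin taken 12 h or 1, 2, 4, 6, 10 or 50 days (d) after the hair had been plucked with wax. According to the design text, an earlier waxing had synchronised the hair cycles of the mice. The mice were 10 weeks old up to day 4, 11 weeks old on days 6 and 10, and 17 weeks old on day 50 per the sample labels. The protocol gives an age of 7 to 8 weeks at plucking. The series' design text describes the tissue as fat and dermis around the follicles, and the labels call it adipose cells.

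BMP ligands are secreted proteins of the TGF-beta superfamily. They bind type I and type II receptor kinases, which phosphorylate SMAD1, SMAD5 and SMAD9, and these enter the nucleus with SMAD4 and switch on target genes, among them those of the ID proteins. ID proteins lack a DNA-binding domain and hold basic helix-loop-helix transcription factors inactive. In mouse skin, BMP2 and BMP4 made by dermal cells and fat below the follicles hold hair stem cells at rest, and inhibitors such as noggin relieve that hold when a new hair cycle begins.

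A single array was run per time. Without replicates, differences carry no test. All arrays lay on 1 slide, none had a saturated spot, and 72.9% to 81.2% of their spots were well above background. In bulk tissue, fewer cells of a type and less RNA per cell cannot be told apart. Values are log2 signals minus the 75th percentile of the array. Among 7616 genes with several bright probes, changes from the control had a median SD of 0.16 between probes of 1 gene, and this technical spread is the error used here. Repeat spots of a probe on 1 array had a median SD of 0.06 to 0.09, and no error between mice can be had. Nearly every member is read by 1 probe of 60 bases, so the values of different members cannot be set against each other as amounts. Per the file headers, the day 10 array missed the accepted range for its spike-in slope.

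The members did not move as a block. Bmp4, Bmp7 and Id1 stood highest on day 4, Bmp2 stood highest on day 10, and the antagonist Grem1 stood highest at 12 h and lowest on days 6 and 10. Bmp6, Nog, Id2 and Id3 stayed within 2-fold of the shaved control at all 7 times. Bambi was not well above background on any array. The plot of levels by array shows these courses side by side.

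**Figure D1:**
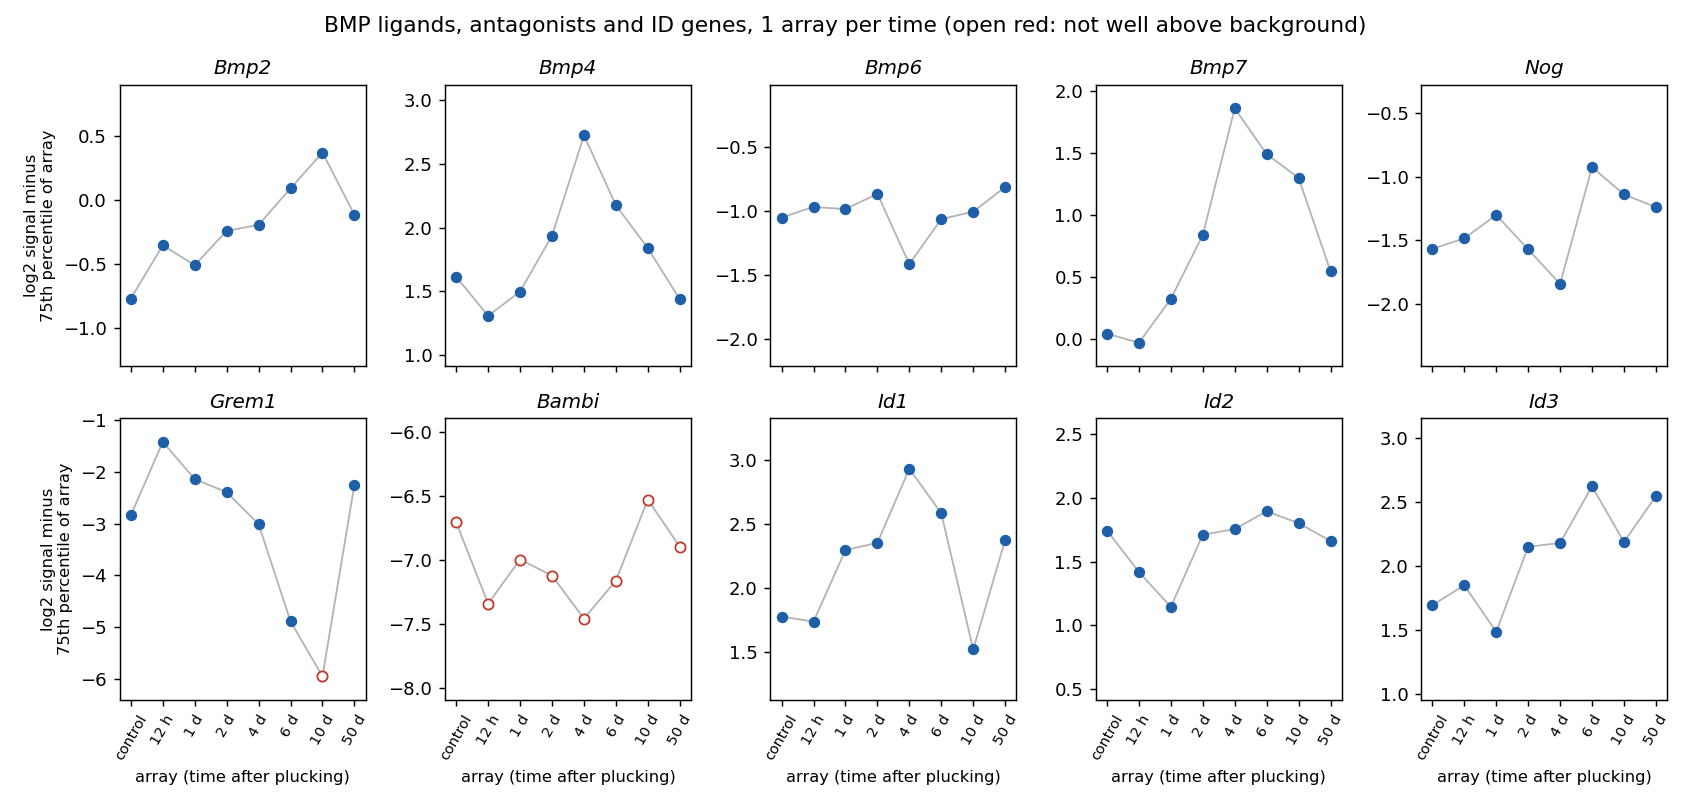
Log2 signal minus the 75th percentile of the array (y axis, its own scale per gene) for each of the 10 genes on the 8 arrays in order of time (x axis), 1 point per array. Filled points were well above background and open points were not. Bmp4, Bmp7 and Id1 peak on day 4, Grem1 drops to -5.95 on day 10, and Bambi is open on all arrays.

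The sequence behind a value matters most for Bmp4, the one member with a pair of probes, because only one of them gave a signal. Both lie on chromosome 14 in mm9, the build of the array design, on the minus strand, at chr14:47003391-47003450 for the first and chr14:47003198-47003257 for the second. Whether they lie in an exon or a UTR is not given, since an mm9 annotation was not used here. The last 30 bases of each probe, 5′ to 3′ in the sense of the transcript, are shown to compare their base content.
First Bmp4 probe: tccctatagctggacttttatcttaaaaaa
Second Bmp4 probe: gaaaataaaatgagtcattattttaaagat
The first probe has 23 G or C among its 60 bases and was well above background on all 8 arrays. The second has 9 and was not well above background on any array. Its level stayed between -7.74 and -6.86, so the values of Bmp4 below are those of the first probe. With the mean of both probes, the difference of Bmp4 from the control on day 4 was 0.36 instead of 1.11.

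The promoter of Grem1 is shown because its level ranged most among the members, and those of Id2 and Id3 because both are direct BMP targets. Promoters of 5 of the 10 members were found, and the sequences run from 250 bases before to 50 bases after the gene's start in RefSeq, build GRCm38.p6. Capitals mark GGCGCC, a GC-rich motif that SMAD1 and SMAD5 are known to bind, which reads the same on both strands.
Grem1: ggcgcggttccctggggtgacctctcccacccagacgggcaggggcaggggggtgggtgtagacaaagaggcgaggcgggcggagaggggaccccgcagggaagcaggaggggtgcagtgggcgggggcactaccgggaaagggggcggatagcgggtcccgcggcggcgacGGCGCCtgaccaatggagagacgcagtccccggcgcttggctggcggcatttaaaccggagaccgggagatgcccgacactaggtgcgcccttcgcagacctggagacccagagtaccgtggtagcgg
Id2: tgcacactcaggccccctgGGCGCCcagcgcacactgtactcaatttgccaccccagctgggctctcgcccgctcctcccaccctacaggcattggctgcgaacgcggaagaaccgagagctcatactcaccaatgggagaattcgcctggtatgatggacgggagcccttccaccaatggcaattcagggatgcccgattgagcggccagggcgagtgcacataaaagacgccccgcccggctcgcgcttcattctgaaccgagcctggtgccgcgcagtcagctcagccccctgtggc
Id3: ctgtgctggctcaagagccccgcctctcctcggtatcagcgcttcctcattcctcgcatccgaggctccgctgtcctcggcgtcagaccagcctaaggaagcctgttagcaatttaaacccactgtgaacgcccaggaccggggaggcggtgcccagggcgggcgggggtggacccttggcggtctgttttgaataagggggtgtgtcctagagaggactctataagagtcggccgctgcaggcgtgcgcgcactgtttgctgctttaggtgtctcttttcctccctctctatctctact
The Grem1 promoter lies at chr2:113758599-113758898 on the minus strand and holds the motif once at position -78, counted from the gene's start. The Id2 promoter lies at chr12:25096043-25096342 on the minus strand and holds it at position -231. The Id3 promoter, at chr4:136143572-136143871 on the plus strand, does not hold these letters, nor do the promoters of Bmp4 and Bmp6. Of 32851 promoters of the same length, 11.9% held the motif. The 5 promoters held 60% to 70.7% G or C, against a median of 52.7% over all promoters. That share is therefore not one at equal base content. Also searched on both strands were CAGACA, GTCTAGAC and TATAAA, which were in none of the 5 promoters and in 21%, 0.213% and 13.6% of all. GTCTAGAC is a palindromic SMAD element, CAGACA holds part of it and TATAAA is the TATA box. A match of letters is a description of the sequence and shows no binding.

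Bmp7, one of the ligands, had the largest increase among the 4. Its level was 0.04 in the shaved control, -0.03 at 12 h, 0.32 on day 1, 0.84 on day 2, 1.86 on day 4, 1.49 on day 6, 1.30 on day 10 and 0.54 on day 50. The control and the 12 h array were the lowest and differed by 0.07, less than the spread between probes, and each step from 12 h to day 4 was larger than that spread. Bmp7 was 3.52-fold above the control on day 4, 2.72-fold on day 6 and 2.39-fold on day 10. Against the day 50 array its log2 differences were 1.31 on day 4, 0.94 on day 6 and 0.75 on day 10, so the last pair fell under 2-fold. A range at least as wide as its 1.89 was seen in 7.84% of 27513 genes well above background on at least 6 arrays.

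Bmp4, a dermal ligand of resting skin, was measured at 1.62 in the control, 1.31 at 12 h, 1.5 on day 1, 1.94 on day 2, 2.72 on day 4, 2.17 on day 6, 1.84 on day 10 and 1.44 on day 50. The day 4 array stood apart from the next highest, day 6, by 0.55. On day 4 the gene was 2.15-fold above the control, with a log2 difference of 1.11. Its differences from the control were -0.31 at 12 h, -0.12 on day 1 and -0.18 on day 50, and the last pair lay at or near the spread between probes.

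Markers of hair matrix and shaft cells stood high on the arrays where Bmp4 and Bmp7 did: the 12 genes of that list summed to 721 on day 4, against 7.48 in the control, in multiples of the array's 75th percentile. Their part in the ligands' differences was not tested.

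Bmp2, the ligand linked to fat below the follicles, followed another course. Its level was -0.77 in the control, -0.35 at 12 h, -0.51 on day 1, -0.24 on day 2, -0.19 on day 4, 0.09 on day 6, 0.37 on day 10 and -0.11 on day 50. The control was the lowest array, and all 7 plucked arrays were above it, by log2 differences of 0.26 on day 1 to 1.14 on day 10. On day 10 it was 2.21-fold above the control and on day 6 1.82-fold. Because all 7 differences share that single control array, its own error enters each of them. Against the day 50 array, Bmp2 differed by 0.49 on day 10, under 2-fold.

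Bmp6, a ligand of the same family, had the narrowest range of the 4 ligands, 0.60, against a median of 0.77 over all 27513 genes. Its level lay between -1.42 on day 4 and -0.81 on day 50. The 6 other arrays lay between -1.06 and -0.87. The day 4 array was 0.35 below the next lowest, and the gaps between all other neighbours in the order were 0.10 or less, within the spread between probes.

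Grem1, which encodes gremlin, a secreted protein that binds BMP2, BMP4 and BMP7 and keeps them from their receptors, had the widest range of all members, 4.53. Its level was -2.84 in the control, -1.42 at 12 h, -2.14 on day 1, -2.39 on day 2, -3.01 on day 4, -4.89 on day 6, -5.95 on day 10 and -2.25 on day 50. In processed signal this was 84.1 in the control, 276.7 at 12 h, 125.9 on day 1, 116.2 on day 2, 83.7 on day 4, 32.3 on day 6, 9.40 on day 10 and 105.9 on day 50. The 12 h array was the highest and the arrays of days 6 and 10 were far below the other 6. A range at least as wide was seen in 0.8% of 27513 genes.

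At 12 h Grem1 was 2.67-fold above the control, and on day 6 it was 4.14-fold below it. On day 10 the probe was not well above background, so only a bound can be given: Grem1 was at least 3.56-fold lower than in the control. Between days 6 and 10 no fold is given, because the day 6 level, after scaling by the 75th percentile, lay under the lowest level well above background on the day 10 array. On day 50 it was at least 5.37-fold above the day 10 array and 1.51-fold above the control. Against the day 50 array, the log2 difference of Grem1 at 12 h was 0.83, under 2-fold. With normexp background correction, which adds an offset, the log2 differences from the control shrank to 1.00 at 12 h, -1.27 on day 6 and -0.95 on day 10, so that those at 12 h (just under 2-fold) and on day 10 no longer passed, and kept their signs.

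Nog encodes noggin, the classical secreted BMP inhibitor of the hair cycle. It was -1.56 in the control, -1.48 at 12 h, -1.30 on day 1, -1.57 on day 2, -1.84 on day 4, -0.93 on day 6, -1.14 on day 10 and -1.24 on day 50. The lowest array was day 4 and the highest was the next in time, day 6, which stood 1.56-fold above the control with a log2 difference of 0.64. With normexp that difference was 0.46. From day 2 to the control and from the control to 12 h the gaps were 0.0046 and 0.08, within the spread between probes.

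Bambi encodes a membrane protein that resembles a BMP receptor without a kinase and blocks signalling. Its processed signal was 3.82 to 6.67 on the 8 arrays, and 0 of 8 arrays had it well above background. Its single probe gives no level in these samples, and its differences are not reported.

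Id1 was the ID gene with the widest range, 1.41. Its level was 1.77 in the control, 1.73 at 12 h, 2.29 on day 1, 2.35 on day 2, 2.93 on day 4, 2.58 on day 6, 1.52 on day 10 and 2.37 on day 50. The day 4 array was the highest, 2.23-fold above the control, and the day 10 array was the lowest, so that day 10 stood 2.09-fold below day 6. Against the day 50 array, Id1 differed by 0.56 on day 4, under 2-fold. The arrays of days 1, 2 and 50 differed from each other by less than the spread between probes. Bmp4 and Bmp7 shared the highest array with Id1, but on day 10 Bmp7 was 2.39-fold above the control while Id1 differed from it by -0.26.

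Id3 was 1.69 in the control, 1.85 at 12 h, 1.49 on day 1, 2.15 on day 2, 2.18 on day 4, 2.62 on day 6, 2.19 on day 10 and 2.55 on day 50. It was highest on day 6, 1.91-fold above the control, and nearly as high on day 50, 1.81-fold above it. The arrays of days 2, 4 and 10 differed by less than the spread between probes. Its probe aligns across 175 bases of chr4:135700075-135700249 in mm9 although it has 60 bases, so it does not lie in 1 unbroken stretch of the genome.

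Id2 varied least of the ID genes, with a range of 0.75 that 52.2% of genes reached or exceeded. Its level was 1.74 in the control, 1.42 at 12 h, 1.15 on day 1, 1.71 on day 2, 1.75 on day 4, 1.89 on day 6, 1.80 on day 10 and 1.66 on day 50. The 12 h and day 1 arrays stood below the other 6, which lay between 1.66 and 1.89. On day 1 it was 1.51-fold below the control, while Id1 was 1.43-fold above it on the same arrays.

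**Figure D2:**
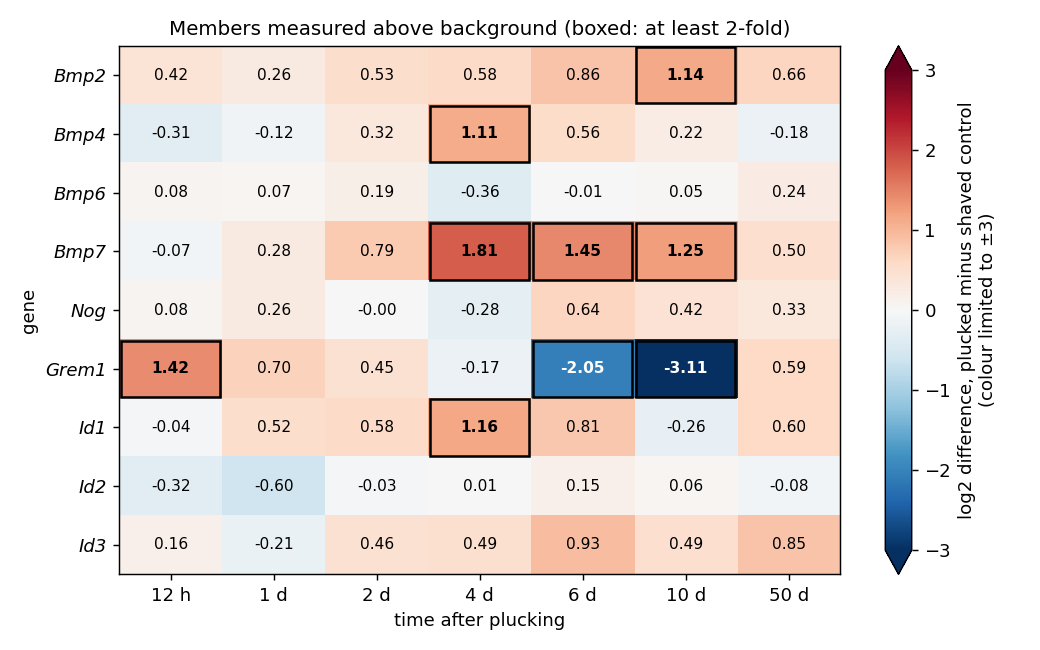
Log2 difference of each plucked array from the shaved control (colour and number, plucked minus control) for the 9 members measured above background (rows) at the 7 times (columns). Boxed cells differ at least 2-fold: 1 at 12 h, 3 on day 4, 2 on day 6 and 3 on day 10.

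A gene was counted when it differed at least 2-fold from the shaved control and its probe was well above background on whichever array was brighter. On day 4, 3 of 9 measured members passed, all higher (Bmp4, Bmp7 and Id1), where 12.5% of all 28879 measured gene names passed, 5.89% higher and 6.61% lower. On day 10, 3 of 9 passed (Bmp2 and Bmp7 higher, Grem1 lower), against a background of 6.05%, with 3.76% higher and 2.29% lower. On day 6, 2 of 9 passed (Bmp7 higher and Grem1 lower), against 6.35%, with 4.23% higher and 2.12% lower. At 12 h, 1 of 9 passed, Grem1, higher, against 7.25%, with 3.89% higher and 3.36% lower. None passed on days 1, 2 or 50, where 5.88%, 6.13% and 7.13% of all genes did, in that order. The higher share was 2.67% on day 1, 2.56% on day 2 and 2.72% on day 50, and the lower share was 3.21% on day 1, 3.57% on day 2 and 4.4% on day 50. With 9 members, a single gene is 11.11% of the list, so a count of 0 or 1 lies near the background.

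The median log2 difference of the measured members was above that of all genes at each time. It was 0.08 at 12 h, 0.26 on day 1, 0.45 on day 2, 0.49 on day 4, 0.64 on day 6, 0.22 on day 10 and 0.50 on day 50, beside medians over all genes from -0.13 on day 4 to 0.02 on day 1. These 7 medians share the control array, and at 12 h the members' median was less than the spread between probes. Against the day 50 array the direction turned at the early times: the members' median was -0.24 at 12 h, -0.17 on day 1, -0.05 on day 2, -0.08 on day 4, 0.21 on day 6 and 0.10 on day 10. The day 50 sample was 17 weeks old and the control 10, so age and time since plucking cannot be told apart in that reference.

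**Figure D3:**
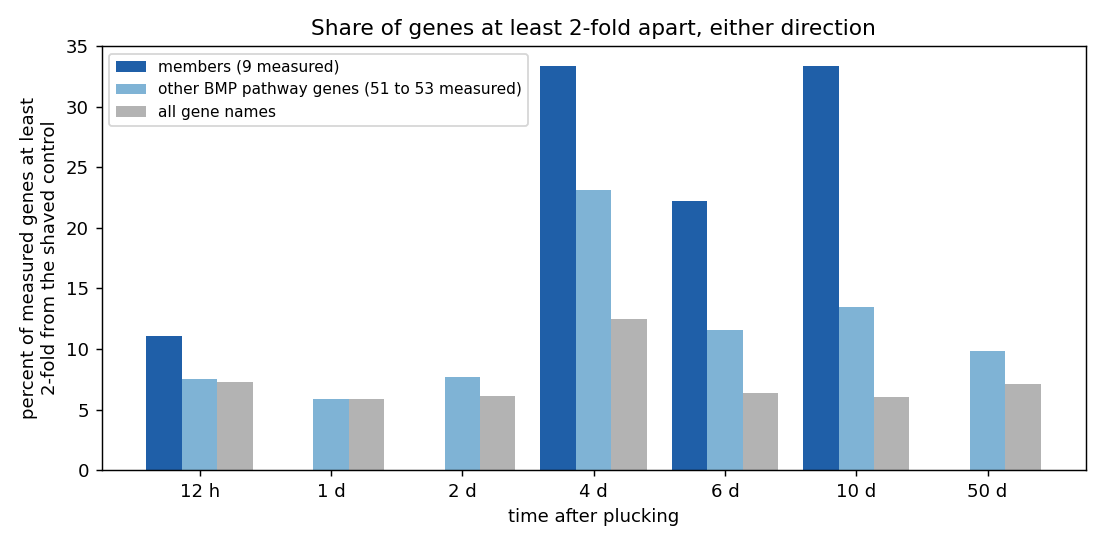
Percent of measured genes at least 2-fold from the shaved control in either direction (y axis) at the 7 times (x axis), for the 9 measured members, the 51 to 53 other BMP pathway genes measured, and all gene names. The members stand at 33.33% on days 4 and 10 and at 0% on days 1, 2 and 50.

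Steps between neighbouring times do not use the shaved control. From 12 h to day 1 no member changed 2-fold, where 4.21% of all genes did, 1.54% higher and 2.66% lower. None did from day 1 to day 2 either, where 2.33% of all genes did, 1.04% higher and 1.29% lower. For day 4 against day 2, 1 of 9 passed, Bmp7 at 2.03-fold higher, beside a background of 8.74%, with 4.82% higher and 3.92% lower. For day 6 against day 4, Grem1 alone passed, 3.68-fold lower, beside 7.78%, with 5.17% higher and 2.61% lower. For day 10 against day 6, Grem1 (by its dim value) and Id1 were lower, 2 of 9 beside 6.6%, with 2.52% higher and 4.09% lower. For day 50 against day 10, Grem1 alone passed, higher, beside 12.6%, with 6.09% higher and 6.47% lower.

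Genes with the most similar courses were sought among 15703 named genes well above background on at least 6 arrays, by the root mean square difference of the 2 centred log2 profiles over the 8 arrays. Nearest to Bmp4 were Arl15, Bex4 and Ccdc112, each at 0.13, where the median over all genes was 0.54. Nearest to Id1 were Tom1l1 at 0.12 and Jag2 and Bcl7a, both at 0.14, against a median of 0.53. Nearest to Bmp7 were B3galt5 at 0.15, Cdh6 at 0.20 and Pdzd2 at 0.21, against 0.73. For Bmp2 they were Capn12 at 0.15, Rnf19a at 0.15 and Fgf4 at 0.17, against 0.43, and for Id3 Dtwd2 at 0.18 and Lsm14b and Padi1, both at 0.19, against 0.46.

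Nearest to Grem1 were Cyp2b10 at 0.38, Dgat2l6 at 0.53 and Mmrn1 at 0.58, where the median was 1.43. These distances were larger than those above, but the measure grows with a gene's range, which was 4.53 for Grem1. They therefore do not show that Grem1 had a poorer match than the other members. Cyp2b10 shared the low arrays of Grem1, at -2.60 on day 6 and -3.55 on day 10, where its own control level was -1.10. Among the members themselves no pair was closer than Bmp6 and Nog, at 0.24, followed by Id2 and Id3 at 0.26. Bmp6 and Bambi were at 0.27, although Bambi was not well above background on any array. A small distance can thus mean only that both genes varied little.

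The rest of the pathway was followed in 58 further genes. Of the 52 measured on day 4, 9 were higher by the 2-fold rule and 3 were lower, or 23.08%, beside 12.5% of all genes. Of these 12 genes, 6 came from the list of other BMP targets, which has 9 measured genes and was written with earlier results known. The remaining lists gave 0 of 9 ligands, 1 of 12 receptors and co-receptors, 3 of 12 antagonists and 2 of 10 SMADs and regulators. At 12 h, 3 of 53 were higher and 1 lower, on day 1 it was 1 of 51 higher and 2 lower, and on day 2 it was 2 of 52 in each direction. On day 6, 6 of 52 were higher and 0 lower, on day 10 it was 5 of 52 higher and 2 lower, and on day 50 it was 4 of 51 higher and 1 lower. These counts include genes whose control was dim. With dim arrays at their bound, the higher counts were 1 on day 2, 8 on day 4, 5 on day 6, 4 on day 10 and 2 on day 50, and those at 12 h and on day 1 stayed at 3 and 1. Before that bound, the shares in either direction were 7.55% at 12 h, 5.88% on day 1 and 7.69% on day 2. Beside them, 7.25%, 5.88% and 6.13% of all genes passed, so these 3 times lay near the background. On days 6, 10 and 50 the shares were 11.54%, 13.46% and 9.80%, beside 6.35%, 6.05% and 7.13% of all genes. On day 6, 3 of the 6 genes that passed again came from the list of other BMP targets.

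The largest differences were among other BMP targets. Of 9 measured on day 4, 6 were at least 2-fold higher, beside 5.89% of all genes. This list was written with earlier results of these data known. Msx2, a homeobox factor of the hair matrix, was -0.53 in the control, -0.27 at 12 h, 0.02 on day 1, 0.07 on day 2, 2.20 on day 4, 1.83 on day 6, 0.56 on day 10 and -0.13 on day 50, which made it 6.64-fold higher on day 4 and 5.13-fold higher on day 6 than in the control. Foxn1, the transcription factor that is defective in nude mice and needed for the hair shaft, was dim (not well above background) in the control array and was at least 22.4-fold higher on day 4, 20.8-fold on day 6 and 11.1-fold on day 10. Gata3 at 3.75-fold, Id4 at 2.58-fold, Dlx3 at 2.43-fold and Msx1 at 2.15-fold, all known from hair or skin, were the other 4 on day 4. Of this list, Msx2, Gata3 and Id4 then stood at least 2-fold lower on day 10 than on day 6, as Id1 did. That was 3 of 9 measured, beside 4.09% of all genes. Hamp, a liver hormone gene controlled by BMP6, was above background only at 12 h and on day 50 and was at least 2.85-fold above the control at 12 h and at least 1.43-fold on day 50.

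Of 12 receptors and co-receptors, all measured at every time, only Acvrl1 passed the threshold against the control, and only on day 4. On that day 12.5% of all genes passed, 6.61% lower, and 5.88% to 7.25% passed at the other times. Acvrl1, a type I receptor of endothelial cells, was 1.21 on day 4 and 2.25 in the control, 2.05-fold lower. It was below the control on all 7 plucked arrays, the other 6 by log2 differences of -0.34 to -0.65. The co-receptor genes Hfe2, now named Hjv, and Rgma stood 1.98-fold and 1.82-fold above the control on day 50. Against day 10, 3 of the 12 passed on day 50, beside 12.6% of all genes: Hfe2 was 2.67-fold and Rgma 2.34-fold higher, and Tgfbr3, a TGF-beta and BMP co-receptor, was 2.27-fold lower. The main type I and type II receptors, Bmpr1a and Bmpr2, ranged over 0.73 and 0.37 on the log2 scale.

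Among the 10 SMAD genes and their regulators, Smad7, an inhibitory SMAD that BMP and TGF-beta signals induce, was 2.15-fold above the control on day 4 and 2.07-fold on day 6, and above it on all 7 arrays. Smad9 was dim (not well above background) in the control array. It differed from the control's own value by more than 2-fold on days 2, 4, 6, 10 and 50, but its bounds were only at least 1.27-fold to 1.43-fold, and with normexp its difference on day 6 was -0.07. Skil, which encodes a repressor of SMAD activity, was above the control on all 7 arrays, by log2 differences of 0.39 to 0.86. The signal transducers Smad1 and Smad5 were highest on day 4, at -0.17 and 3.31 where the control had -1.01 and 2.71.

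Other antagonists went both ways. Sostdc1, a BMP and WNT inhibitor of hair follicles, was 2.80-fold above the control on day 4, with levels of 1.18 on day 4 and -0.30 in the control. Chrdl1, a chordin-like BMP binder, was 2.28-fold lower at 12 h, 2.03-fold on day 2 and 2.38-fold on day 4, and Bmper was 2.11-fold lower on day 1, 2.31-fold on day 2 and 2.32-fold on day 10. Both were below the control on all 7 arrays, Chrdl1 on day 10 by only -0.03. Chrdl2 was 2.78-fold above the control on day 50, and Fstl3 2.21-fold at 12 h.

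Among the other ligands, Bmp8a, related to BMP7, was 2.06-fold above the control on day 6 and 2.39-fold on day 10. Bmp3, which opposes other BMPs, was 2.29-fold above it on day 10, and Bmp10 was 2.24-fold below it on day 50. Hey1, a Notch and BMP target, was 2.21-fold above the control on day 2 alone.

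**Figure D4:**
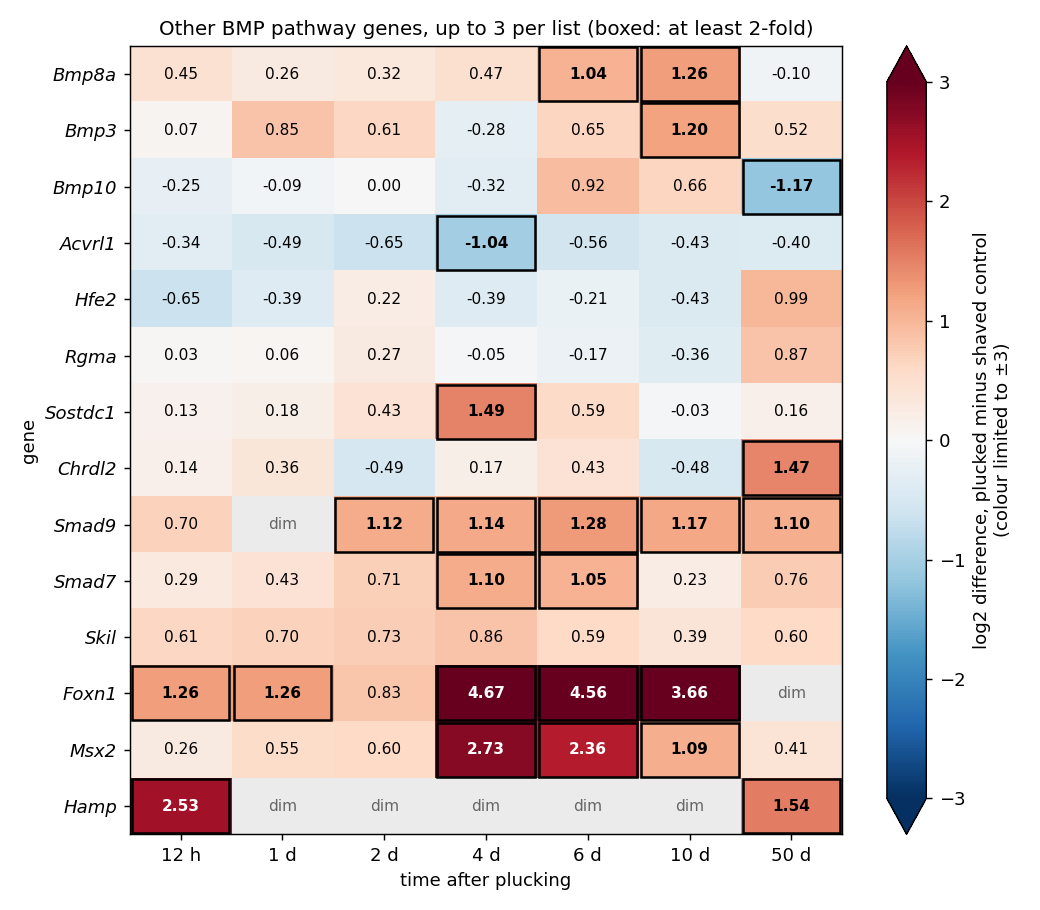
Log2 difference of each plucked array from the shaved control (colour and number, plucked minus control) for up to 3 genes of each of the 5 other pathway lists (rows) at the 7 times (columns). Boxed cells differ at least 2-fold, "dim" marks a gene not well above background on the brighter array, and the numbers of Foxn1, Smad9 and Hamp use the dim control's own value. Foxn1 on days 4, 6 and 10 has the largest numbers.

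Markers of cell types were measured on the same arrays, as sums of linear signal in multiples of the array's 75th percentile. All 10 adipocyte markers were well above background on every array. Their sum was 1295 in the control, 1164 at 12 h, 1511 on day 1, 1587 on day 2, 908 on day 4, 730 on day 6, 961 on day 10 and 1436 on day 50. The lowest sums were those of days 4, 6 and 10, the arrays on which Bmp7 was more than 2-fold above the control, and Grem1 was low on days 6 and 10. All 8 skeletal muscle markers were also well above background on every array. Their sums ran from 2270 on day 6 to 3901 on day 50, against 2749 in the control. Hfe2 and Rgma also had their highest levels on day 50, and the part of muscle in them was not tested.

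Hair matrix and shaft markers summed to 7.48 in the control, 32.5 at 12 h, 9.60 on day 1, 44.3 on day 2, 721 on day 4, 782 on day 6, 373 on day 10 and 20.4 on day 50. Of the 12, 11 were at least 2-fold above the control on days 4 and 6 and 10 on day 10. The count was 8 at 12 h, 0 on day 1, 9 on day 2 and 9 on day 50. Of all genes, 2.56% to 5.89% were higher at these times. Shh, a ligand made in the hair germ, was well above background only on days 4 and 6. Dermal papilla markers summed to 15.0 on day 4 and 10.3 on day 6, against 5.54 to 7.10 on the other arrays. By the 2-fold rule on day 4, 5 of 10 were higher and 1 lower, beside 5.89% and 6.61% of all genes. Corin was -1.52 on day 4 and -4.73 in the control, and Sox2 was well above background only on day 4. Fgf10, the lower one, was -0.74 on day 4 and 0.60 in the control, and Fgf7 was 0.79 and Alx4 -0.95 on day 4, where the control had 1.24 for Fgf7 and -0.71 for Alx4. Both sums were high on day 4, where Bmp4, Bmp7, Id1, Msx2 and Foxn1 also had their highest levels, but not on all arrays alike. At 12 h, with 8 hair markers above the control, the differences from it were -0.31 for Bmp4, -0.07 for Bmp7 and -0.04 for Id1. On day 10 the hair marker sum was 373 while Id1 had its lowest level, and the dermal papilla sum was 6.43, against 7.10 in the control, while Bmp7 was 2.39-fold higher. The part of these cells in the members' differences was not tested.

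Lymphocyte markers summed to 44.7 at 12 h, against 4.71 to 8.29 on the other arrays. There 6 of 8 were at least 2-fold above the control, beside 3.89% of all genes. Grem1 and Hamp also stood highest on that array. Interfollicular keratinocyte markers were highest on day 1, with a sum of 348 against 40.1 in the control. Their sum was 168 at 12 h, 143 on day 2 and 181 on day 4, the array where Bmp4, Bmp7 and Id1 were highest. All 10 were at least 2-fold higher at 12 h and on days 1, 2 and 4, beside 2.56% to 5.89% of all genes. They were lowest on day 10, at 21.8, the array where Grem1 and Id1 were lowest. Endothelial markers ran from 24.3 to 43.5, with their lowest sums on days 4 and 6, and Acvrl1 had its lowest level on day 4. Macrophage markers were at 394 in the control and 141 to 331 on the plucked arrays, and fibroblast markers at 1218 in the control and 800 to 1172 on those. The part of these cells in any member's level was not tested.

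**Figure D5:**
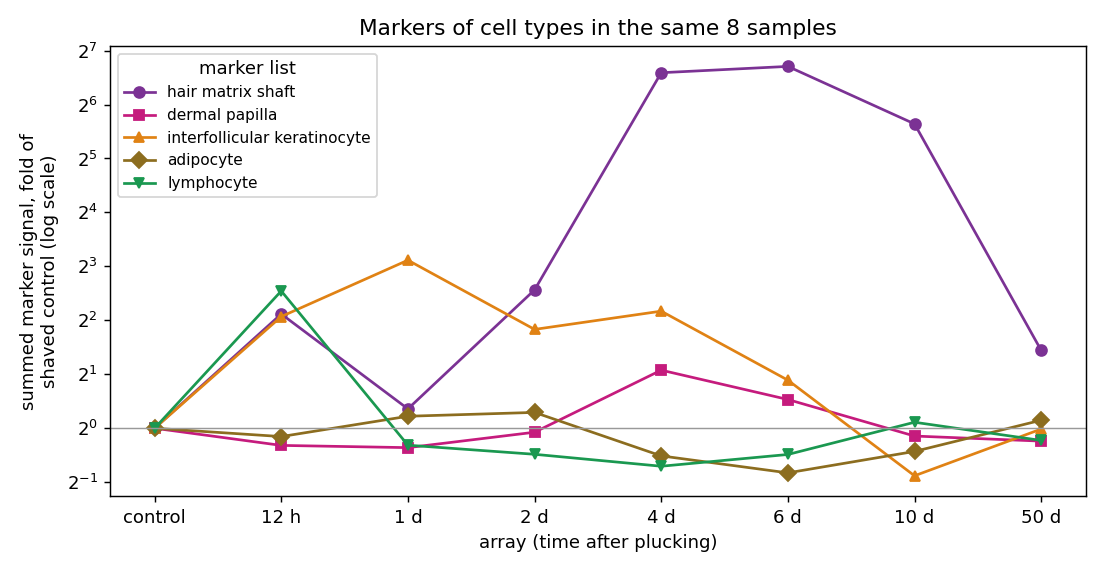
Summed linear signal of 5 marker lists as a multiple of the shaved control (y axis, log scale) on the 8 arrays in order of time (x axis), 1 point per array and list. Hair matrix and shaft markers are highest on days 4 and 6, dermal papilla markers on day 4, lymphocyte markers at 12 h and interfollicular keratinocyte markers on day 1, while adipocyte markers are lowest on day 6.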

How the data were processed

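RNA of 8 samples was measured on 8 one-colour (Cy3) Agilent arrays of 1 slide. The deposited values are spot intensity from Agilent's Feature Extraction, which per the file headers had been background-subtracted and detrended, with surrogates in place of dim signals. A scaling between arrays is not recorded in them. Control and outlier-flagged spots were removed and repeat spots averaged, which left 55668 probes for 34790 gene names. Log2 intensity was set relative to each array's 75th percentile, and the brightest probe on average represented its gene. No test was possible with 1 array per group.

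The list of 10 members was given, and the pathway and marker lists were written from textbook knowledge, with earlier results of these data known. The rule for naming other genes took the 3 with the largest difference from the control in each pathway list and the 3 nearest in pattern to each member above background on at least 6 arrays with a range of at least 1. The genes Id4, Msx1, Gata3, Dlx3, Chrdl1, Bmper, Fstl3, Hey1, Smad1, Smad5, Bmpr1a, Bmpr2, Tgfbr3, Fgf7, Fgf10 and Alx4 lie outside it and were chosen after their values were seen. A gene that the rule names is not reported here, and it stays in the counts of its list. Software was pandas 2.3.3 and numpy 2.4.6 under Python 3.11.15, and limma 3.58.1 in R 4.3.3 gave quantile normalization and normexp with an offset of 50. The call rule was run on simulated data with planted changes well above 2-fold, bright probes and little noise. That run checks the code only and cannot speak for dim probes, differences near 2-fold or variation between mice. Alternatives were quantile normalization, normexp, centring on the median of bright probes, the mean over probes, other filters and fold thresholds, and the 50 d array as the reference.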

Additional observations from a re-analysis of the deposited data

How the results depend on the processing

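The number of members at least 2-fold from the shaved control stayed within 1.5 times under quantile normalization, centring on bright probes, the mean over probes and both background filters. That limit lets a count of 3 fall to 2. The share of all genes passing in the same comparison follows each count in parentheses. With both arrays required above background, 2 passed on day 10 (4.22%), where Grem1 lost its call. With the mean over probes, Bmp4 lost its call on day 4. With normexp, 0 passed at 12 h (3.34%), where Grem1 lost its call, as it did on day 10 at -0.95. With a 1.5-fold threshold, 2 passed on day 1 (16%), 1 on day 2 (15.9%), 6 on day 6 (16.2%) and 4 on day 50 (22.9%). The counts at 12 h, 1 (18%), on day 4, 3 (27.8%), and on day 10, 3 (15.2%), did not change. On day 4 the members' share of 33.33% then lay near that of all genes. With 3-fold, 0 passed at 12 h (3.08%), 1 on day 4 (5.68%), 1 on day 6 (3.11%) and 1 on day 10 (2.72%). Against the 50 d array, 0 passed at 12 h (8.43%), 1 on day 1 (6.69%), 1 on day 6 (10.8%) and 1 on day 10 (12.6%). There Grem1 at 12 h, Id1 on day 4, Bmp7 on days 6 and 10 and Bmp2 on day 10 lost their calls, and Id3 on day 1 gained one, lower by -1.06.

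For steps between neighbouring times with normexp, 0 passed for day 4 against day 2 (4.07%) and 1 for day 10 against day 6 (3.18%). With both arrays required above background, 1 passed for day 10 against day 6 (4.95%) and 0 for day 50 against day 10 (10.3%). With 1.5-fold, 1 passed for day 1 against 12 h (12.5%), 1 for day 2 against day 1 (7.66%), 3 for day 4 against day 2 (22.5%), 2 for day 6 against day 4 (20.3%) and 3 for day 50 against day 10 (31.3%). With 3-fold, 0 passed for day 4 against day 2 (3.59%) and 0 for day 10 against day 6 (2.51%).

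Of 70 differences of members from the control, 60 moved by less than the spread between probes with normexp and 65 with quantile normalization. No member at least 2-fold from the control changed sign under any alternative run, and Smad9 on day 6 turned to -0.0672 with normexp, and the cause was not tested. Against the 50 d array, 20 of 60 members' differences changed sign, all under 2-fold in the main setting. That array also differs from the control in age, 17 weeks against 10. The median over all genes on day 6 moved to -0.19 with normexp. No paired analysis was possible because each group has 1 sample. Dim signals limit Bambi, Grem1 on day 10, Smad9, Foxn1 and Hamp to bounds or no value.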
